A study of Homo sapiens with 12 samples.

Results

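Gene levels reached in 2 breast cancer cell lines after dexamethasone, a synthetic ligand of the glucocorticoid receptor, were compared across the 51838 genes of the count table. The comparison used 6 of the 12 libraries of the series: 3 of HCC70 and 3 of MDA-MB-231, each from cells given 100 nM dexamethasone for 4 h. The other 6 libraries came from the same lines given ethanol, the vehicle, for 4 h. They enter no test here and their levels are given as a description only. HCC70 and MDA-MB-231 are established human lines, both labelled as basal-like breast cancer, and each group is 1 line. HCC70 was grown in RPMI with HEPES and added glucose, MDA-MB-231 in DMEM with non-essential amino acids, so effects of medium and of line cannot be told apart. The design states an interest in genes controlled by the glucocorticoid receptor and STAT3. Nothing in the labels says whether the 3 libraries of a group came from separate cultures, so the p-values measure the spread between these libraries, which may be technical. No gene was altered on purpose in either line.

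The glucocorticoid receptor sits in the cytoplasm with chaperones until ligand binds. It then enters the nucleus, binds DNA directly at response elements or through other factors, and raises or lowers transcription within hours. In mammary epithelium it is known for inducing stress-protective, metabolic and survival genes and for lowering inflammatory mediators. Which sites it reaches depends on the chromatin and partner factors a cell already has, and basal-like lines range from epithelial to mesenchymal in form.

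Library totals were 117747584 to 123218973 counts, and 26968 genes had enough counts to be tested. Log2 CPM (counts scaled by TMM library size, CPM) correlated at 0.992 to 0.995 across genes between libraries of 1 line and at 0.765 to 0.776 between lines. MDA-MB-231 dexamethasone replicate 2 stood apart. Its deviation from the mean of the 3 MDA-MB-231 libraries rose with gene GC content (Spearman correlation across genes 0.575), against -0.487 and -0.394 in replicates 1 and 3. Across genes, the line difference itself rose with GC content (Spearman correlation 0.253). Values of single genes that a GC correction moved by over 1.5 times are given with both, and the part of GC content in them was not tested otherwise.

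Most genes differed between the lines with the receptor active. Of the 26968 genes tested, 22229 (82.4%) passed the edgeR quasi-likelihood test at an adjusted p under 0.05, 11128 (41.3%) higher in HCC70 and 11101 (41.2%) higher in MDA-MB-231. The libraries of the lines did not overlap for 84.9% of genes. A test against a 2-fold margin called 11587 genes (43%), 6153 (22.8%) higher in HCC70 and 5434 (20.1%) higher in MDA-MB-231, with median folds of 5.81 and 4.95. A like level was called where a pair of one-sided tests placed the difference inside 1.5-fold, and 3347 genes (12.4%) met it. Of these, 1661 also differed by a small amount that passed the difference test. The largest fold among like-level genes was 1.35, the median 1.12, and the smallest fold past the 2-fold test was 2.11. A gene was called specific to a line where every library of that line had at least 1 CPM and every library of the other had under 0.1 CPM. This held for 524 genes in HCC70 (1.94%) and 424 in MDA-MB-231 (1.57%), and 154 and 131 of them had 0 counts in the other line. Other scalings turned the balance of the 2-fold calls, with 5590 higher in HCC70 against 6133 in MDA-MB-231 under upper quartile scaling and 5420 against 6394 by library size alone. All calls were then 10211 against 12143 and 9885 against 12480. A further 3053 genes were neither called different nor called like.

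**Figure D1:**
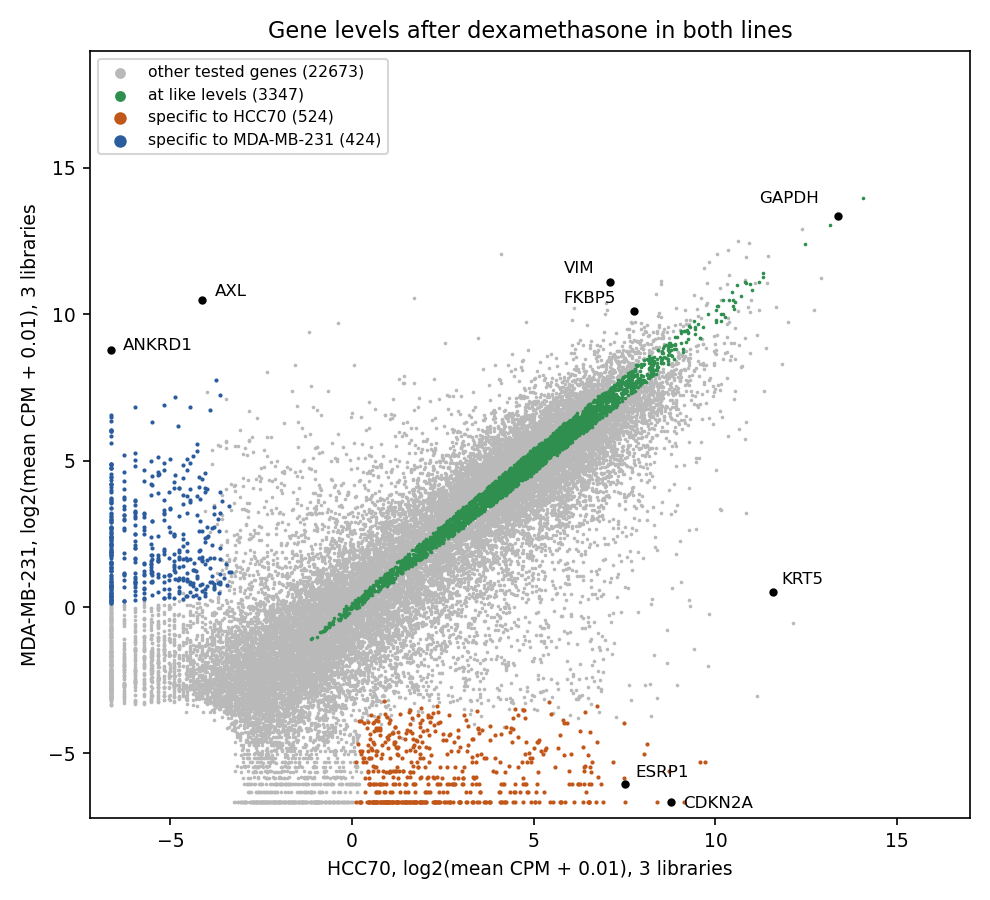
Mean level of each tested gene after dexamethasone in HCC70 (x axis) and MDA-MB-231 (y axis), as log2(CPM + 0.01) over 3 libraries per line, coloured by class with black points for the genes labelled. The 3347 like-level genes lie along the diagonal, while the 524 and 424 specific genes lie near the floor of the other line.

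Epithelial genes were mostly far higher in HCC70. Of 36 epithelial junction genes tested, 32 were higher in HCC70 and 4 in MDA-MB-231, with 29 over 2-fold higher in HCC70 and none over 2-fold higher in MDA-MB-231. Their median log2 difference was 4.12, against -0.002 over all genes tested. Of all genes, 41.3% were higher in HCC70 and 41.2% in MDA-MB-231, 22.8% and 20.1% over 2-fold. CDH1, E-cadherin, was at 534, 525 and 540 CPM in HCC70 and at 1.29, 1.99 and 2.14 CPM in MDA-MB-231. The lines did not come near each other, with a log2 difference of 8.21 ± 0.20 (SE) and an adjusted p of 1.97e-08 (edgeR). CDH1, and KRT5, KRT14 and VIM below, were chosen after their values were seen. In bulk RNA, fewer cells of a type and less RNA per cell cannot be told apart. RAB25, a small GTPase of epithelial membrane recycling, was at 94.9, 93.8 and 98 CPM in HCC70 and had 4 counts over all MDA-MB-231 libraries. ESRP1, an epithelial splicing regulator, was at 180, 183 and 183 CPM in HCC70 and had 2 counts in MDA-MB-231. Of the list, 2 members were at like levels. TJP1, a scaffold that links junction proteins to actin, averaged 125 ± 2.79 (SD, n = 3) CPM in HCC70 and 144 ± 7.95 in MDA-MB-231.

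Both lines carry the basal-like label, and the basal keratins KRT5 and KRT14 were near absent in MDA-MB-231. Among 21 basal markers, 15 were higher in HCC70 and 6 in MDA-MB-231, where 41.3% and 41.2% of all genes were. KRT5, a keratin of basal epithelium, was at 3110, 2990 and 3070 CPM in HCC70 and at 1.22, 0.592 and 2.44 CPM in MDA-MB-231. KRT14, its partner keratin, averaged 113 ± 0.783 CPM against 0.166 ± 0.185. DSG3, a desmosomal cadherin, was at 55.6, 56.3 and 61 CPM in HCC70 with 0 counts in MDA-MB-231, at least 7450-fold higher against a floor of 3 counts over the group. The 4 basal markers over 2-fold higher in MDA-MB-231 were CAV1, COL17A1, ITGA6 and S100A2. CAV1, the caveolar coat protein, averaged 789 ± 28.8 CPM there and 88.5 ± 1.05 in HCC70. ITGA6, a laminin-binding integrin, averaged 455 ± 26.2 and 70.5 ± 1.06 CPM.

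HCC70 also carried more luminal transcripts. Of 22 luminal markers tested, 18 were higher in HCC70 and 4 in MDA-MB-231, where 41.3% and 41.2% of all genes were. FOXA1, a pioneer factor of luminal breast cells, was at 59.8, 56.7 and 56 CPM in HCC70 and averaged 0.0203 CPM in MDA-MB-231. KIT, a receptor tyrosine kinase of luminal progenitors, averaged 56.4 ± 0.937 against 0.0593 ± 0.00845 CPM. SPDEF, an epithelial ETS factor, ran the other way, with 1.69, 2.61 and 2.51 CPM in HCC70 and 14.9, 22.5 and 14.9 CPM in MDA-MB-231. Its log2 difference was -2.94, or -3.80 with a GC and length offset. KRT18, a simple epithelial keratin, was the 1 luminal marker at a like level, with 472 ± 19.6 and 596 ± 26 CPM. That like call was lost in 7 of 16 alternatives, among them upper quartile scaling, library size alone, a replicate block and a GC and length offset (highest adjusted p = 1, edgeR).

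Mesenchymal markers were mostly higher in MDA-MB-231, 19 of 23 tested against 4 higher in HCC70, with a median log2 difference of -3.75. Over all genes tested, 41.2% and 41.3% were, and the median was -0.002. VIM, vimentin, was at 139, 137 and 131 CPM in HCC70 and at 2430, 2080 and 2170 CPM in MDA-MB-231. AXL, a receptor tyrosine kinase of mesenchymal cells, was at 0.0706, 0.009 and 0.0618 CPM in HCC70 and at 1280, 1640 and 1350 CPM in MDA-MB-231, the log2 difference being -14.84 ± 0.29 (SE). COL1A2, a collagen chain, had 0 counts in HCC70 and 21.1, 24.9 and 24.1 CPM in MDA-MB-231. SNAI1, a repressor of CDH1, stood opposite to the list, at 10.4 ± 0.526 CPM in HCC70 and 0.916 ± 0.163 in MDA-MB-231. TGFBI, a matrix protein, did likewise, at 911 ± 5.62 and 217 ± 17.9 CPM. MSN, moesin, a membrane-to-actin linker, was at a like level, 729 ± 30 and 804 ± 18.6 CPM. Of 19 markers of leukocytes, endothelium, fibroblasts, fat, muscle, neurons and liver in the table, 12 had enough counts to be tested. Over 2-fold apart were 10 of the 12, 5 higher in each line, against 43% of all genes tested. DCN and LUM, fibroblast markers chosen after their values were seen, had 0 counts in HCC70. PDGFRA, another fibroblast marker of the list, went the other way and was specific to HCC70. PTPRC, the leukocyte antigen CD45, averaged 0.0238 CPM in HCC70 and 0.185 in MDA-MB-231. CD14 was at 41.8 ± 2.92 CPM in HCC70 and KDR at 21.2 ± 1.71 CPM in MDA-MB-231, so single markers of the list were well above 0. The summed level of the list ranged from 91.3 to 94.9 CPM in HCC70 and from 98.1 to 99.4 CPM in MDA-MB-231.

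**Figure D2:**
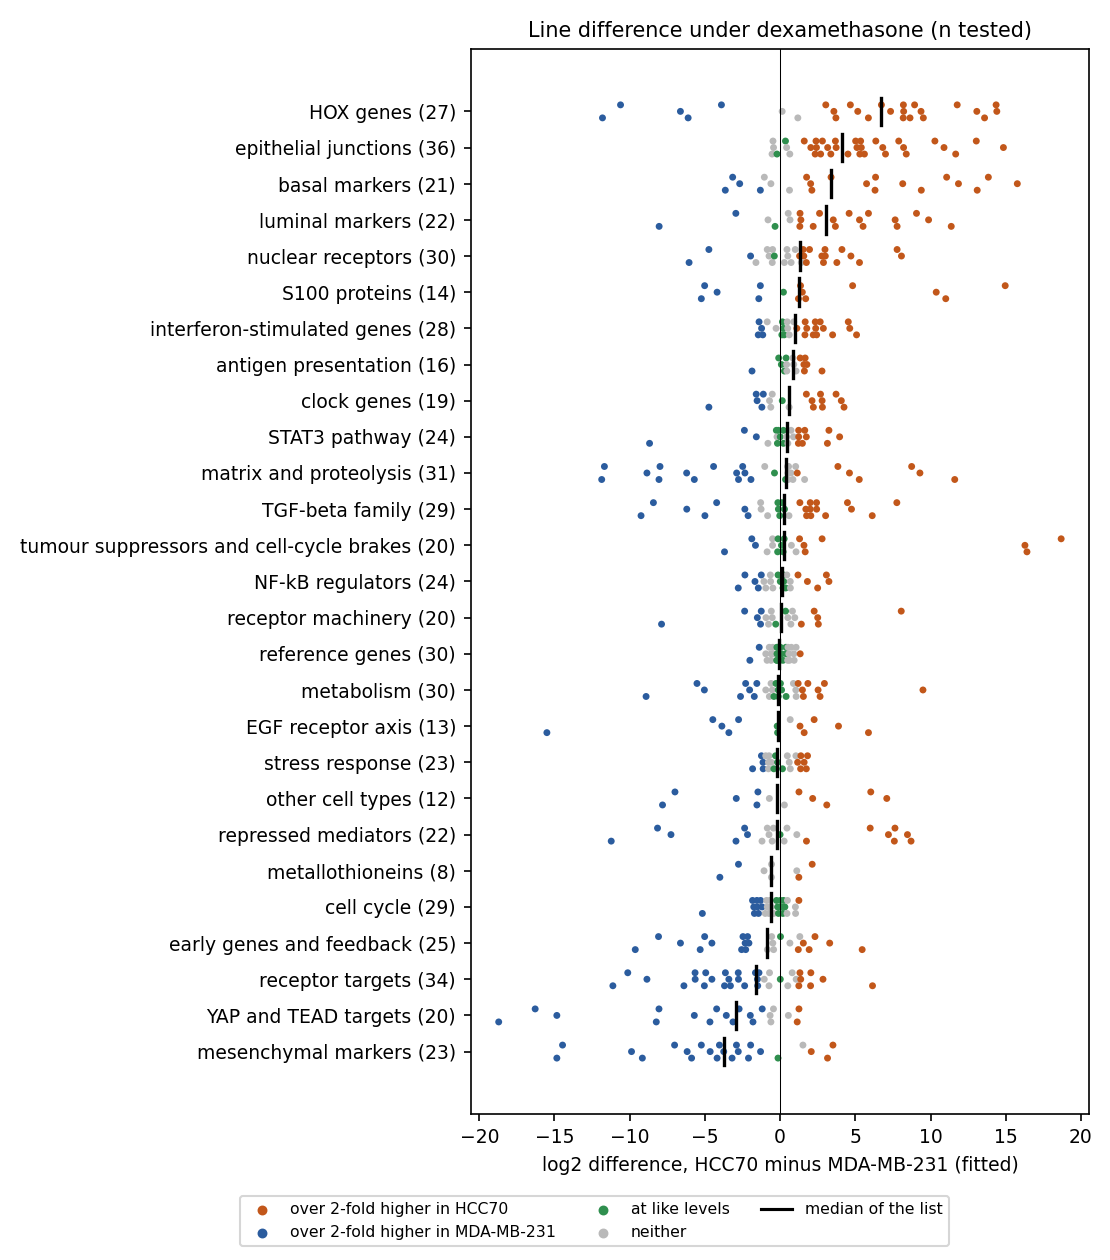
Fitted log2 difference of every tested member of 27 gene lists, HCC70 minus MDA-MB-231 under dexamethasone, 1 point per gene, with a black bar at each list's median. HOX genes and epithelial junction genes have the highest medians (6.73 and 4.12), mesenchymal markers and YAP and TEAD targets the lowest (-3.75 and -2.93).

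The receptor itself was higher in MDA-MB-231, while its handling of ligand and cofactors was split. NR3C1, which encodes the glucocorticoid receptor, was at 50.3, 53.3 and 50.9 CPM in HCC70 and at 89.9, 85.6 and 88.4 CPM in MDA-MB-231. The lines did not overlap, with a log2 difference of -0.77 ± 0.05 (SE) and an adjusted p of 3.25e-07 (edgeR). NR3C2, the mineralocorticoid receptor, which also binds glucocorticoids, averaged 6.51 ± 0.251 CPM in HCC70 and 1.35 ± 0.0951 in MDA-MB-231. HSD11B2, the enzyme that inactivates cortisol, was at 238, 234 and 224 CPM in HCC70 and at 0.652, 1.1 and 0.873 CPM in MDA-MB-231, a log2 difference of 8.05, or 7.24 with a GC and length offset. HSD11B1, the enzyme that works in the opposite direction, had 0 counts in HCC70 and averaged 0.243 ± 0.053 CPM in MDA-MB-231, at least 27.3-fold higher. Of the chaperones that hold the receptor ready, HSP90AA1 was at a like level (1180 ± 24.1 and 1440 ± 66.2 CPM), a call lost under upper quartile scaling (adjusted p = 0.102, edgeR) and by library size alone (0.425), while HSP90AB1 and HSPA8 were 2.47-fold and 2.86-fold higher in MDA-MB-231. Among coactivators, NCOA1 was at a like level, with 38.4, 36 and 37.8 CPM in HCC70 and 29.6, 27.8 and 29.9 CPM in MDA-MB-231, a call lost in 5 of 16 alternatives (highest adjusted p = 0.0959, edgeR). NCOA2 averaged 97 ± 4.54 CPM in HCC70 and 16.7 ± 1.54 in MDA-MB-231. Over the 20 genes of the receptor machinery, 10 were higher in each line and 2 were at like levels, 10% against 12.4% of all genes. Among all genes, 41.3% were higher in HCC70 and 41.2% in MDA-MB-231.

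Known targets of the receptor were more often higher in MDA-MB-231. Of 34 tested, 23 were higher in MDA-MB-231 and 10 in HCC70, 20 and 7 of them over 2-fold, and only NFKBIA was at a like level. Over 2-fold were 79.4% of them against 43% of all genes, and the median log2 difference was -1.58 against -0.002. FKBP5, a co-chaperone that limits receptor activity and one of its most used target genes, was at 214, 217 and 217 CPM in HCC70 and at 1060, 1110 and 1150 CPM in MDA-MB-231. Its log2 difference was -2.36 ± 0.05 (SE, adjusted p = 3.22e-10, edgeR). In vehicle the means had been 35.4 and 57.1 CPM, so the line order was the same and the gap smaller. SGK1, a serum- and glucocorticoid-regulated kinase, was at 26.8, 31 and 25.6 CPM in HCC70 and at 922, 783 and 866 CPM in MDA-MB-231. DUSP1, a phosphatase that switches off MAP kinases, averaged 6.4 ± 0.543 and 148 ± 5.46 CPM. ERRFI1, a brake on the EGF receptor, averaged 126 ± 3.72 and 1340 ± 58.5 CPM. All 3 had also been higher in MDA-MB-231 in vehicle, where the SGK1 means were 5.61 and 134 CPM. SGK1 and DUSP1 were chosen after their values were seen.

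Several targets were low or close to absent in HCC70 with ligand present. PDK4, which curbs glucose oxidation, was at 3.51, 3.62 and 3.4 CPM in HCC70 and at 111, 110 and 124 CPM in MDA-MB-231, and the vehicle means were 0.911 and 3.11 CPM. The libraries of the lines did not overlap. Specific to MDA-MB-231 were KLF15, a Krüppel-like factor with 1 count in HCC70 and 8.88 ± 1.26 CPM in MDA-MB-231, and MAOA, a monoamine oxidase, at 0.0416 ± 0.0228 and 47.6 ± 3.34 CPM. ZBTB16, a transcriptional repressor, was also specific to MDA-MB-231 under dexamethasone, at 2.65, 5.35 and 3.49 CPM against 0.0177, 0.054 and 0.0618 CPM. In vehicle it averaged 0.0166 CPM in MDA-MB-231 and 0.00605 CPM in HCC70, so it met the rule for specificity under dexamethasone and not in vehicle.

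Among the targets higher in HCC70, TSC22D3, which encodes the anti-inflammatory factor GILZ, was at 402, 411 and 402 CPM in HCC70 and at 158, 163 and 167 CPM in MDA-MB-231, 2.49-fold apart. In vehicle the same means were 153 and 5.78 CPM, so the gap under dexamethasone was smaller than the gap in vehicle, a change that was not tested. TFCP2L1, a CP2-family factor, was at 408, 388 and 397 CPM in HCC70 and at 50.7, 58.4 and 56.5 CPM in MDA-MB-231. SCNN1A, a subunit of the epithelial sodium channel, averaged 250 ± 13.4 and 61.6 ± 8.32 CPM. STOM, stomatin, a membrane protein, averaged 84.1 ± 3.42 and 20.4 ± 1.15 CPM. LCN2, an iron-carrier binding protein, averaged 36 ± 1.67 and 0.509 ± 0.0656 CPM. HSD11B2, described above, had an HCC70 mean of 31.1 CPM in vehicle and of 232 ± 7.17 CPM under dexamethasone.

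PER1 and NFKBIA were under 2-fold apart without a GC correction. PER1, a clock gene with receptor sites, was at 129, 116 and 118 CPM in HCC70 and at 153, 264 and 175 CPM in MDA-MB-231, where replicate 2 was highest. Its log2 difference was -0.71 ± 0.21 (SE, adjusted p = 0.0205, edgeR), or -0.48 without that replicate (adjusted p = 1.48e-05) and -1.66 with a GC and length offset. Without HCC70 replicate 2 or 3 the adjusted p was 0.0642 or 0.0562, and with no filter on low counts 0.0501. NFKBIA, the inhibitor that holds NF-kB in the cytoplasm, was at 103, 103 and 104 CPM in HCC70 and at 98.4, 105 and 104 CPM in MDA-MB-231, and the libraries of the lines overlapped. The log2 difference was 0.01 (95% interval -0.10 to 0.12). In vehicle NFKBIA averaged 55.2 and 44.6 CPM.

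**Figure D3:**
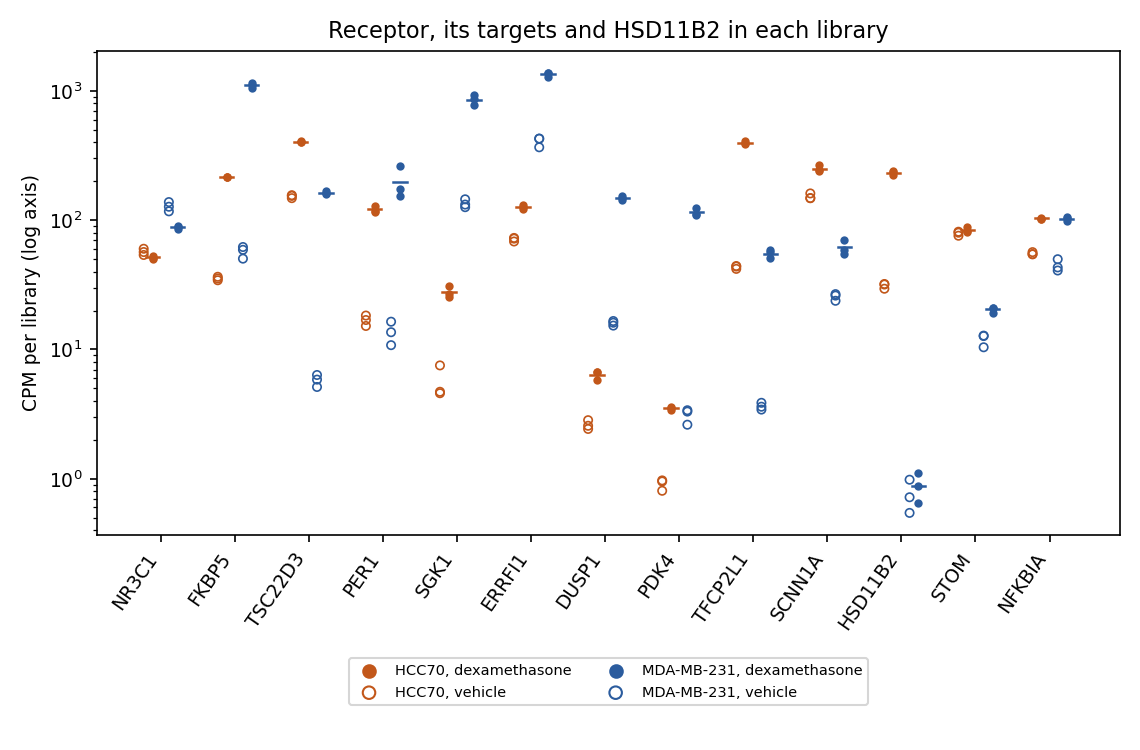
CPM in each library on a log axis for the receptor gene NR3C1, 11 receptor targets and HSD11B2, with filled points and mean bars for dexamethasone and open points for vehicle (3 libraries each). SGK1, DUSP1 and PDK4 sit far higher in MDA-MB-231, TSC22D3, TFCP2L1, SCNN1A, STOM and HSD11B2 higher in HCC70, and NFKBIA overlaps.

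Metallothioneins, zinc-binding proteins induced by metals and glucocorticoids, differed in both directions. Of 8 tested, 4 were higher in MDA-MB-231 and 3 in HCC70, where 41.2% and 41.3% of all genes were. MT1E was at 9.48, 10.9 and 9.68 CPM in HCC70 and at 166, 158 and 159 CPM in MDA-MB-231, and MT2A averaged 35.3 ± 3.25 and 240 ± 5.04 CPM. MT1F (7.45 ± 0.495 and 1.7 ± 0.305 CPM) and MT1X (16.1 ± 1.84 and 6.78 ± 0.0981 CPM) were higher in HCC70. The genes are near-identical, so how reads were shared between them is uncertain.

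Of 22 cytokine and adhesion genes that the receptor is known to lower, 8 were higher in HCC70 and 9 in MDA-MB-231, shares close to the 41.3% and 41.2% of all genes tested. ICAM1 was the 1 member at a like level. CX3CL1, a membrane-bound chemokine, was at 174, 166 and 165 CPM in HCC70 and at 0.765, 0.999 and 0.85 CPM in MDA-MB-231. IL33, an epithelial alarmin, was specific to HCC70, at 3.65 ± 0.441 CPM with 3 counts in MDA-MB-231. CXCL5, a neutrophil chemokine, averaged 2.25 ± 0.276 and 0.0105 ± 0.0122 CPM. Specific to MDA-MB-231 were IL6, at 1.13 ± 0.14 CPM with 1 count in HCC70, and CSF3, a granulocyte growth factor, at 2.17, 2.81 and 2.46 CPM with 0 counts in HCC70. ICAM1, a leukocyte adhesion receptor, was at 14.6, 13.5 and 14.1 CPM in HCC70 and at 13.6, 15.6 and 13.2 CPM in MDA-MB-231, against vehicle means of 16.2 and 24.5 CPM. With a GC and length offset its log2 difference was -0.36 (adjusted p = 9.31e-05, edgeR), still a like level.

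STAT3, the transcription factor named beside the receptor in the design, was higher in HCC70, at 191, 187 and 193 CPM against 134, 129 and 138 CPM, a 1.43-fold difference (adjusted p = 8.51e-06, edgeR). It met neither the 2-fold test nor the like-level rule. Of 24 genes of its pathway, 15 were higher in HCC70, 6 in MDA-MB-231, and 6 (25%) were at like levels, where 41.3%, 41.2% and 12.4% of all genes were. IL6ST, the receptor chain shared by IL-6 family cytokines, stood opposite, at 64.4, 68.1 and 71.7 CPM in HCC70 and at 354, 342 and 365 CPM in MDA-MB-231. LIFR, its partner chain, averaged 55.4 ± 0.287 and 166 ± 10.9 CPM, with vehicle means of 57.7 and 68.2 CPM. JAK2, a kinase upstream of STAT3, averaged 26.4 ± 1.34 and 7.89 ± 0.595 CPM. SOCS2 and CISH, feedback inhibitors of the same family, ran opposite to each other: SOCS2 averaged 0.0327 and 13.8 ± 1.46 CPM, CISH 7.58 ± 0.305 and 0.488 ± 0.0788 CPM.

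The EGF receptor was at a like level, and its ligands were split. EGFR was at 372, 362 and 378 CPM in HCC70 and at 412, 420 and 440 CPM in MDA-MB-231, a like level at 1.14-fold. Of 13 genes of the axis, 5 were over 2-fold higher in each line and 2 were at like levels, EGFR and the ligand TGFA. Over all genes tested, 22.8% and 20.1% were over 2-fold higher in HCC70 and MDA-MB-231, and 12.4% were at like levels. AREG, amphiregulin, averaged 2.58 ± 0.301 and 57.3 ± 3.53 CPM, and EREG, epiregulin, 0.657 ± 0.135 and 9.63 ± 0.265 CPM. EPGN, epigen, averaged 9.16 ± 0.48 and 0.623 ± 0.223 CPM, and EGF 5.35 ± 0.408 and 1.11 ± 0.0567 CPM. NRG1, neuregulin, a ligand of the related ERBB3 and ERBB4, had 0 counts in HCC70 and averaged 48.1 ± 3.78 CPM in MDA-MB-231.

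Targets of YAP and TEAD, the effectors of the Hippo pathway, were higher in MDA-MB-231 in 17 of 20 cases, against 41.2% of all genes. Their median log2 difference was -2.93, against -0.002. ANKRD1, a nuclear ankyrin-repeat protein, had 0 counts in HCC70 and was at 456, 415 and 458 CPM in MDA-MB-231, at least 49900-fold higher. CTGF, a secreted matrix-associated protein, was at 0.6, 0.585 and 0.689 CPM in HCC70 and at 169, 166 and 164 CPM in MDA-MB-231. The 2 members over 2-fold higher in HCC70 were factors of the pathway: WWTR1, which encodes the coactivator TAZ, at 164 ± 1.9 and 74.6 ± 1.11 CPM, and TEAD4 at 51 ± 1.02 and 21.4 ± 2.37 CPM. The log2 difference of TEAD4 was 1.252, or 0.70 with a GC and length offset. Interferon-stimulated genes were more often higher in HCC70, 21 of 28 against 5, where 41.3% and 41.2% of all genes were. IFI44L averaged 12.6 ± 0.64 and 0.509 ± 0.169 CPM, and IFI6 16.8 ± 1.41 and 1.49 ± 0.176 CPM. STAT2, which carries the interferon signal, was at a like level, 42.9 ± 1.77 and 35.6 ± 1.66 CPM.

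Other regulatory families were mixed. Of all genes tested, 41.3% were higher in HCC70, 41.2% higher in MDA-MB-231 and 12.4% at like levels. The NF-kB shares higher in each line, and the clock share higher in MDA-MB-231, were close to these. Of 30 nuclear receptors, 20 were higher in HCC70 and 9 in MDA-MB-231, with ESR1, the estrogen receptor, at 3.04 ± 0.233 and 0.0775 ± 0.0207 CPM. Of 19 clock genes, 10 were higher in HCC70 and 8 in MDA-MB-231. PER2, a clock repressor, averaged 34.9 ± 1.81 and 4.97 ± 0.322 CPM, and DBP, a clock output factor, 22.3 ± 0.755 and 1.33 ± 0.239 CPM. CRY2, another clock repressor, was the clock gene at a like level (20.3 ± 0.155 and 18.4 ± 1.07 CPM). Of 29 genes of the TGF-beta family, 16 were higher in HCC70, 11 in MDA-MB-231 and 5 at like levels, among them SMAD4, the shared effector, at 53.6 ± 1.31 and 43.8 ± 1.19 CPM. Of 24 NF-kB regulators, 10 were higher in HCC70, 11 in MDA-MB-231 and 6 at like levels, among them NFKB1, a subunit, at 40.8 ± 1.62 and 44.9 ± 1.03 CPM. Antigen presentation genes were more often higher in HCC70, 13 of 16 against 1. Of 14 S100 genes, 9 were higher in HCC70 and 5 in MDA-MB-231. S100A8, the partner of S100A9, averaged 2.13 ± 0.414 CPM in HCC70 with 0 counts in MDA-MB-231.

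The genes specific to HCC70 included a block of neighbours around CDKN2A. CDKN2A, which encodes the cell-cycle inhibitors p16 and p14ARF, was at 453, 439 and 412 CPM in HCC70 and had 0 counts in all 3 MDA-MB-231 libraries, at least 56200-fold higher in HCC70. Among protein-coding genes expressed in at least 1 line and ordered by the GENCODE annotation, 6 in a row on chromosome 9 were specific to HCC70. They were PTPLAD2, KLHL9, MTAP, CDKN2A, CDKN2B and ELAVL2. PTPLAD2 (43.3 ± 1.29 CPM), KLHL9 (54.1 ± 0.758), MTAP (81.9 ± 1.02) and CDKN2B (89.9 ± 2.99) also had 0 counts in MDA-MB-231, and ELAVL2 (9.47 ± 0.737) had 1 count. The next expressed genes were present in both lines: KIAA1797 averaged 59.8 ± 1.12 and 1.71 ± 0.387 CPM on one side and TUSC1 21.2 ± 2.09 and 4.06 ± 0.396 CPM on the other. In the MDA-MB-231 vehicle libraries PTPLAD2, KLHL9, CDKN2A and CDKN2B again had 0 counts, and MTAP was at 0.0168, 0.016 and 0 CPM. This was the longest such run. PTPLAD2, KLHL9, ELAVL2, KIAA1797 and TUSC1 were chosen after their values were seen. Over all 13087 expressed protein-coding genes, 176 of the specific genes (26.5%) lay next to another gene specific to the same line, in 75 runs, of which 14 held 3 genes or more. The next longest run held 5 kallikrein genes, secreted proteases, on chromosome 19, also specific to HCC70. Of the 13087 genes, 350 were specific to HCC70 and 314 to MDA-MB-231, and the share next to each other in a random order was not computed. Some runs hold genes that may share reads, such as MAGED4B, MAGED4, XAGE1A and XAGE1B, or HSPB2-C11orf52 and C11orf52.

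HOX genes, which record position along the body axis, were mostly higher in HCC70. Of 27 tested, 21 were higher in HCC70 and 5 in MDA-MB-231, and none was at a like level. Over all genes tested the shares were 41.3%, 41.2% and 12.4%. HOXC10 was at 22.3, 21.8 and 21 CPM in HCC70, with 0 counts in MDA-MB-231, and HOXC11 (12.7 ± 0.307 CPM) and HOXC13 (22.4 ± 1.23 CPM) followed the same pattern. HOXA3 averaged 8.93 ± 0.319 CPM in HCC70, also with 0 counts in MDA-MB-231. HOXA13 met the rule for specificity to MDA-MB-231 in vehicle and for neither line under dexamethasone. The 3 HOX genes specific to MDA-MB-231 under dexamethasone were of the HOXD cluster. HOXD3 was at 5.38, 5.52 and 5.23 CPM in MDA-MB-231 and averaged 0.0535 in HCC70, HOXD4 averaged 3.71 ± 0.414 and HOXD1 1.61 ± 0.172 CPM, both with 0 counts in HCC70. The libraries are not stranded and antisense genes overlap several HOX genes, so reads from each strand cannot be told apart.

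Other genes with 0 counts in the opposite line reached high levels. In HCC70, MXRA5, a matrix-remodelling protein, was at 584, 531 and 562 CPM, PLA2G2A, a secreted phospholipase, at 341, 346 and 330 CPM, and AUTS2 at 188, 179 and 183 CPM. In MDA-MB-231, CDH11, a mesenchymal cadherin, was at 89.5, 85.5 and 93.9 CPM, DLC1, a GTPase-activating protein, at 82.2, 82.2 and 83.1 CPM, and KLHL4 at 93.5, 88.8 and 98.6 CPM. LPAR1, a receptor for lysophosphatidic acid, was at 60.9, 52.8 and 58.4 CPM. The lower bounds of these folds ran from 6460 for LPAR1 to 72300 for MXRA5. XAGE1A and XAGE1B, cancer-testis antigens with near-identical copies, were at 67.9, 64.8 and 66.1 CPM and 66.4, 64 and 64.7 CPM in MDA-MB-231, and how reads divide between the copies is uncertain. Most specificity was already there in vehicle: 443 of the 524 HCC70-specific genes (84.5%) and 346 of the 424 MDA-MB-231-specific genes (81.6%) met the same rule in the vehicle libraries. S100A9, a calcium-binding alarmin, is an example, at 30.6, 34 and 34.4 CPM under dexamethasone and 37 CPM in vehicle in HCC70, with 0 counts in MDA-MB-231 in both states.

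Promoter windows of the specific genes held fewer CpG dinucleotides than those of like-level genes. The windows run from 250 bases before to 50 after the start site in RefSeq on GRCh38.p14, and 11875 of the 14896 tested protein-coding genes had one. CpG observed over expected is the count of CpG relative to that given by the window's C and G content, averaged over a gene's windows. Its median was 0.518 for the 259 HCC70-specific genes with a window, 0.683 for the 224 MDA-MB-231-specific genes, 0.845 for the 2193 like-level genes and 0.794 over all tested. A ratio of 0.6 or more was reached by 42.5%, 59.4%, 87.4% and 74.8% of them. The 4 windows below were chosen as examples after their values were seen, each from a gene with 1 window: 2 of genes specific to HCC70, 1 of a gene specific to MDA-MB-231 and 1 at a like level. Capitals mark CpG.
RAB25: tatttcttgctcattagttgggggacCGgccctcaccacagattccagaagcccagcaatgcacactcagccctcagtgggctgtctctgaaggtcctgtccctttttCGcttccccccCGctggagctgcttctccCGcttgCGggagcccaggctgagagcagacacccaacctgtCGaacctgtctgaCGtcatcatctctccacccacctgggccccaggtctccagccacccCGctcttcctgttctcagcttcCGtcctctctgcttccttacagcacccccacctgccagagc
DSG3: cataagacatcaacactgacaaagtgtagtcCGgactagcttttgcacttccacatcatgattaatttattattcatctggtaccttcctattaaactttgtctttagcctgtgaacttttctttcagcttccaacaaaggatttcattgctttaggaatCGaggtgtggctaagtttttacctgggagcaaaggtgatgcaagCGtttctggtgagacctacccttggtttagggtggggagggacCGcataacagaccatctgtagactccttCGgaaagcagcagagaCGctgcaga
ANKRD1: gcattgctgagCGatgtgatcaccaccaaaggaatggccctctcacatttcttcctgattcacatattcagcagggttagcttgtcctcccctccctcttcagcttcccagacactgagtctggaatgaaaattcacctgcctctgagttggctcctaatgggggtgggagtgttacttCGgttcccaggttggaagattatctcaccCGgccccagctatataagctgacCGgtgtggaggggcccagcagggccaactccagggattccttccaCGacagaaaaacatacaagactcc
GCLC: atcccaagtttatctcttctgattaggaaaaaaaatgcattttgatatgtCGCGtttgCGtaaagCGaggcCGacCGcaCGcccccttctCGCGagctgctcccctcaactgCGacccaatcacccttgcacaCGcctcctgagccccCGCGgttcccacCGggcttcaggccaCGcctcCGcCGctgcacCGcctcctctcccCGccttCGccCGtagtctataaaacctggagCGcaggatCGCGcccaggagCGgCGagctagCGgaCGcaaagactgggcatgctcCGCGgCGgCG
The RAB25 window (chr1:156060910-156061209, plus strand) holds 9 CpG at a ratio of 0.363, DSG3 (chr18:31447491-31447790, plus strand) 6 at 0.414, and ANKRD1 (chr10:90921038-90921337, minus strand) 5 at 0.243. The GCLC window (chr6:53545052-53545351, minus strand) holds 32 at 1.13. GC share differed less, with medians of 60.8% for HCC70-specific, 62.3% for MDA-MB-231-specific and 64.7% for like-level genes. A 14-base pattern of the glucocorticoid response element, a whole half-site, free bases and the other half-site without its last base, was searched on both strands. It was in the window of 1 of the 11875 tested genes and of 4 of the 27305 genes of the promoter table, which says nothing of elements outside the windows or of looser matches.

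**Figure D4:**
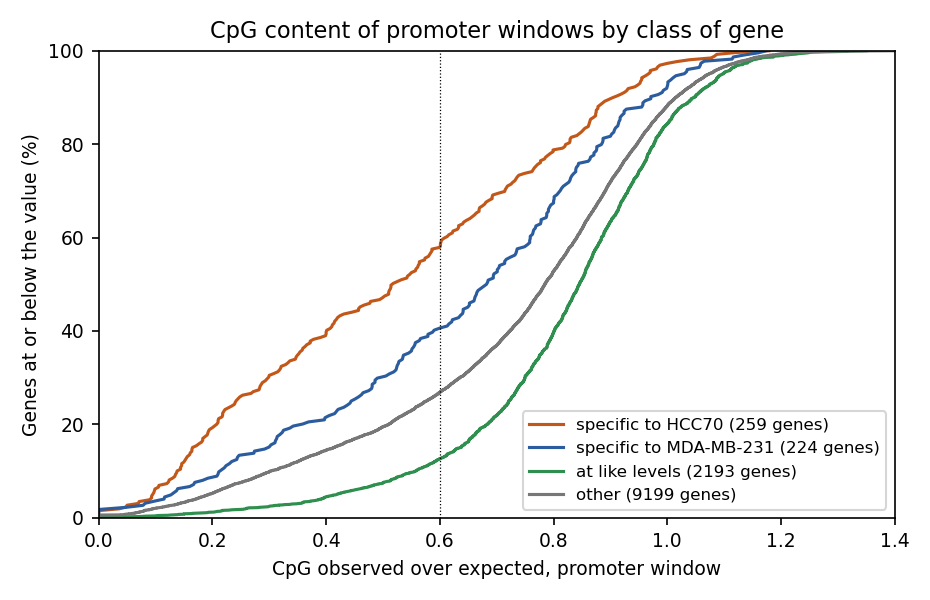
Cumulative share of genes by CpG observed over expected in their promoter windows, for genes specific to either line, genes at like levels and all other tested protein-coding genes, with a dotted line at 0.6. The curve of HCC70-specific genes lies leftmost (median 0.518) and that of like-level genes rightmost (median 0.845).

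Reference genes and, less so, cell-cycle genes were more often at like levels than all genes tested. Of 30 reference genes, 12 (40%) were, and of 29 cell-cycle genes 8 (27.6%), against 12.4% of all tested and 17.7% of protein-coding genes. The 29 cell-cycle genes leaned to MDA-MB-231, with 18 higher there and 8 in HCC70, 9 and 1 of them over 2-fold. STAT3 pathway, NF-kB, antigen presentation and tumour suppressor genes had 25% at like levels in each list. A like call is easier at high counts, and levels were not matched in this comparison. GAPDH, the glycolytic enzyme, was at 10900, 10300 and 10600 CPM in HCC70 and at 10500, 10700 and 10200 CPM in MDA-MB-231. Its fold was 1.01, but with a GC and length offset its log2 difference was -0.45 and the like call was lost (adjusted p = 0.0582, edgeR). ACTB, cytoplasmic actin, averaged 17100 ± 370 and 15900 ± 907 CPM. CDK4, a G1 kinase, was at 110, 108 and 111 CPM in HCC70 and at 113, 104 and 109 CPM in MDA-MB-231, with overlapping libraries. MCM4, a subunit of the replicative helicase, averaged 206 ± 5.19 and 177 ± 1.45 CPM. Common reference genes outside the class were EEF1A1, an elongation factor at 1060 ± 48.1 and 4280 ± 445 CPM, and TBP, the TATA-binding protein, at 7.75 ± 0.278 and 20.3 ± 1.14 CPM. In metabolism, 7 of 30 genes were at like levels, while LDHB, a lactate dehydrogenase subunit, averaged 4.75 ± 0.28 and 219 ± 12 CPM and PHGDH, which opens serine synthesis, 409 ± 16.4 and 0.567 ± 0.16 CPM.

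Most genes at like levels under dexamethasone had close means in vehicle too, where no like-level test was run. Of the 3347 genes, 2229 (66.6%) had vehicle means within 25% of the lower one, and 45 had vehicle means at least 2-fold apart with no overlap of libraries, 16 of them higher in HCC70 and 29 in MDA-MB-231. ACPL2, a phosphatase-like gene, was at 14.4, 14.6 and 14.6 CPM in HCC70 and at 16.2, 15.5 and 16.2 CPM in MDA-MB-231, where its vehicle libraries held 1.05, 1.28 and 1.53 CPM. The HCC70 vehicle mean was 13.5 CPM. IL1R1, the interleukin-1 receptor, averaged 172 ± 3.63 and 130 ± 6.96 CPM, with vehicle means of 151 and 29.5 CPM. GCLC, which limits glutathione synthesis, was at 125, 125 and 136 CPM in HCC70 and at 119, 112 and 116 CPM in MDA-MB-231, with vehicle means of 95.7 and 32.4 CPM. NNMT, nicotinamide N-methyltransferase, averaged 21.7 ± 1.57 and 23.5 ± 1.39 CPM, with vehicle means of 16.7 and 6.45 CPM. In these 4 genes the MDA-MB-231 level was the lower in vehicle. FOSL2, an AP-1 subunit, came from the other side: 149, 143 and 147 CPM in HCC70, 128, 163 and 142 CPM in MDA-MB-231, and vehicle means of 86.2 and 329 CPM. TGFA, an EGF receptor ligand, averaged 38.9 ± 0.434 and 43.7 ± 0.908 CPM, with vehicle means of 25.6 and 83.7 CPM. SMAD3, a TGF-beta effector, averaged 103 ± 2.84 and 105 ± 6.46 CPM, with vehicle means of 91.6 and 188 CPM. The like call of IL1R1 was lost in 9 of 16 alternatives, among them DESeq2 size factors, a replicate block, 4 runs without 1 library and a GC and length offset (highest adjusted p = 0.96, edgeR). In the same 16 alternatives it held for ACPL2, GCLC, NNMT, FOSL2, TGFA and SMAD3.

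The reverse was also rare. Of the 11587 genes over 2-fold apart, 99 had vehicle means within 25% of the lower one, 77 of them higher in HCC70 under dexamethasone and 22 in MDA-MB-231. The count rests partly on single vehicle libraries: without MDA-MB-231 vehicle replicate 1 it was 73 (48 and 25), 49 of them shared, and without replicate 3 it was 147 (120 and 27). CDKN1A, the cell-cycle inhibitor p21, was at 65.1, 68.8 and 67 CPM in HCC70 and at 203, 216 and 207 CPM in MDA-MB-231, with vehicle means of 54.2 and 61.1 CPM. ARHGEF26, a guanine nucleotide exchange factor, averaged 12.9 ± 0.323 and 54 ± 0.813 CPM, with vehicle means of 16 and 16.8 CPM. DNAJB4, a heat-shock co-chaperone, averaged 10.8 ± 0.794 and 42.6 ± 3.63 CPM, with vehicle means of 15 and 15.9 CPM. Among genes higher in HCC70, WNT9A, a WNT ligand, was at 45.9, 42.9 and 45.1 CPM against 5.59, 8.45 and 6.23 CPM, with vehicle means of 23.9 and 24.3 CPM. Its log2 difference was 2.73, or 2.14 with a GC and length offset. FAM46C, a poly(A) polymerase, averaged 18.7 ± 0.812 and 4.56 ± 0.308 CPM, with vehicle means of 19.6 and 20.5 CPM. PAK6, a serine/threonine kinase, was at 54.9, 49 and 49.7 CPM in HCC70 and at 8.01, 10.4 and 8.51 CPM in MDA-MB-231. KSR1, a MAP kinase scaffold, averaged 21 ± 1.16 and 6.61 ± 0.458 CPM. SBNO2, a transcriptional coregulator, was at 492, 451 and 435 CPM in HCC70 and at 90.8, 182 and 104 CPM in MDA-MB-231, where replicate 2 was highest. In vehicle SBNO2 was at 314, 354 and 382 CPM in HCC70 and at 449, 269 and 198 CPM in MDA-MB-231, and PAK6 at 28.2, 29.2 and 30.5 against 33.8, 21.9 and 17.6 CPM, a wide spread in MDA-MB-231. The log2 difference of SBNO2, 1.87, became 2.19 without that replicate and 0.61 with a GC and length offset, and that of PAK6 (2.51) became 1.74 with the offset.

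In 184 genes (0.682% of those tested) the line order under dexamethasone was opposite to that in vehicle. Their libraries did not overlap in either state, and the difference under dexamethasone passed the test. Those named here were chosen after their values were seen, and their vehicle levels have no GC correction. EDN2, the peptide endothelin-2, was at 13.7, 14.4 and 14 CPM in HCC70 and at 60.2, 64 and 64.2 CPM in MDA-MB-231, whereas in vehicle it was at 6.84, 7.34 and 6.35 against 3.04, 2.6 and 1.96 CPM. CEBPB, a C/EBP transcription factor, averaged 95 and 159 CPM under dexamethasone and 67.3 and 17.4 CPM in vehicle, with a log2 difference under dexamethasone of -0.74, or -1.76 with a GC and length offset. NUDT16, a hydrolase of RNA caps, averaged 66.4 and 163 CPM, against 57.3 and 32.1 CPM in vehicle. All 3 were thus lower in MDA-MB-231 in vehicle and higher there under dexamethasone. ARTN, artemin, a ligand of the GDNF family, ran the other way, at 36.8, 35.2 and 33.2 CPM in HCC70 and at 6.62, 8.9 and 6.52 CPM in MDA-MB-231, against vehicle means of 13.2 and 38.2 CPM. Its log2 difference under dexamethasone was 2.26, or 1.02 with a GC and length offset. JUN, an AP-1 subunit, averaged 121 and 52.4 CPM, against 71.6 and 132 CPM in vehicle. WNT7B, a WNT ligand, averaged 47.8 and 25.4 CPM, against 34.5 and 67.6 CPM in vehicle, and its difference was lost with a GC and length offset (log2 difference -0.02, adjusted p = 0.623, edgeR).

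**Figure D5:**
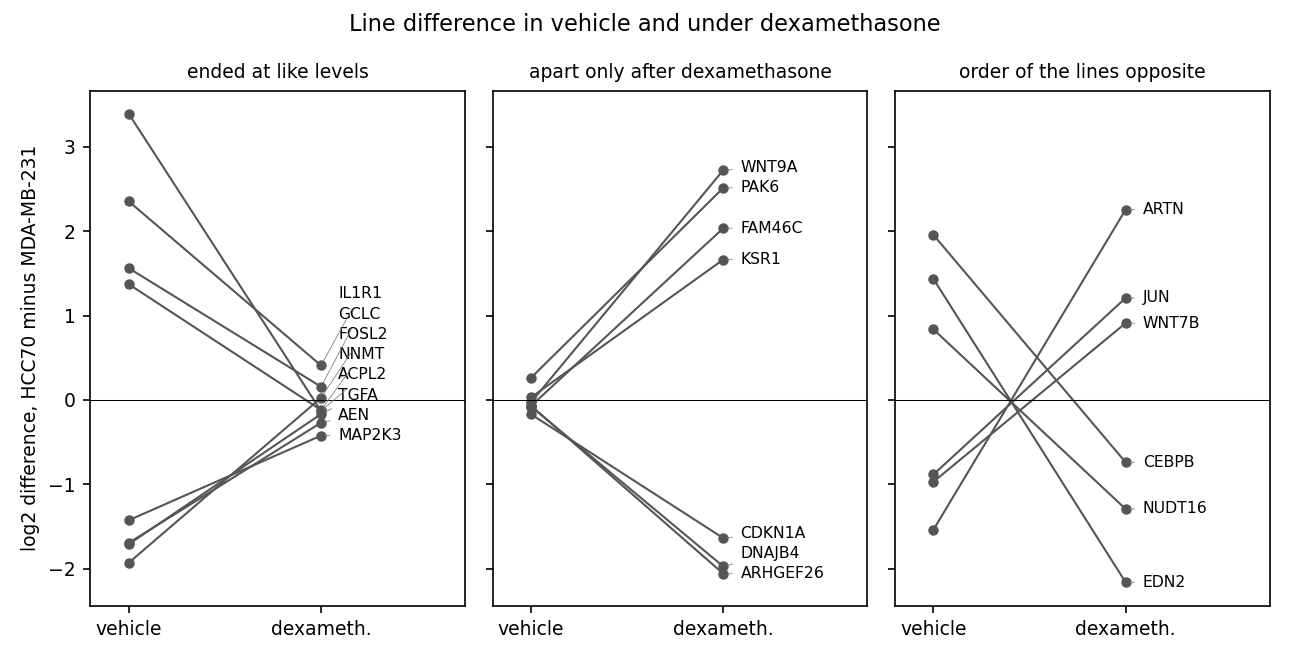
Log2 difference between the lines (HCC70 minus MDA-MB-231) in vehicle, from means, and under dexamethasone, fitted, with 1 line per gene, for genes that ended at like levels, genes apart only after dexamethasone and genes whose line order was opposite. ARTN moved from -1.54 to 2.26 (1.02 with a GC and length offset) and EDN2 from 1.43 to -2.16. The offset was fitted to the dexamethasone libraries only, and the vehicle values have no such correction. The like calls of IL1R1, AEN and MAP2K3 were lost in 9, 10 and 12 of 16 alternatives.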

How the data were processed

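RNA from HCC70 and MDA-MB-231 cells was made into non-stranded poly(A) libraries with a transposase method, per the labels' protocols. The authors deposited 1 table of raw read counts per gene, and the submitters' processing notes name the build hg19 with TopHat 1.4.1, Cufflinks 1.3.0 and bedtools, without saying which step each served. Reads of overlapping, antisense or near-identical genes may therefore be assigned to either.

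From these deposited counts, edgeR 4.0.16 (R 4.3.3) was run on the 6 dexamethasone libraries alone, with TMM scaling, filterByExpr at a minimum count of 10 and a robust quasi-likelihood fit. Log2 differences are HCC70 minus MDA-MB-231, and p-values were adjusted by Benjamini-Hochberg over 26968 genes at a threshold of 0.05. glmTreat tested a 2-fold margin, and 2 one-sided tests against 1.5-fold defined like levels. CPM are counts over TMM-scaled library size. With 4 residual degrees of freedom, simulated counts gave calls for 76% of genes changed 1.5-fold and 98% of those changed 2-fold. Like calls were given to 73% of unchanged genes. In those counts 26234 of 26434 genes were unchanged, whereas in the data 82.4% of genes passed the difference test. The rate of calls at such a share of differing genes was not tested. Standard errors and intervals come from the quasi-likelihood fit and carry the spread between the libraries of a line. Floors cover counting error only, and reads carry no molecular identifiers. Vehicle libraries were scaled separately and without a GC correction.

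Members and gene lists were chosen with earlier results of these data known. Genes named are the 12 largest differences each way, up to 4 members over 2-fold each way and 3 at like levels per list, the 10 largest changes against vehicle in either class, and NR3C1, STAT3, FKBP5, TSC22D3 and PER1. Others are said to be chosen later. Alternatives were DESeq2 1.42.0, limma 3.58.1 voom, other scalings, filters, margins and limits, a replicate block, a GC and length offset from GENCODE genes, and each library left out. Promoters are from RefSeq. Replicate numbers did not pair libraries across lines. Some genes are not reported here.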

Additional observations from a re-analysis of the deposited data

Results flagged for a closer look

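Of the genes named, 7 had libraries that did not overlap between the lines in either state and an opposite line order under dexamethasone and in vehicle. The difference between the states was not tested here. The log2 difference, HCC70 minus MDA-MB-231, was 2.26 for ARTN under dexamethasone and -1.54 in vehicle, 1.21 and -0.89 for JUN, and 0.91 and -0.97 for WNT7B. In the other direction it was -2.16 for EDN2 under dexamethasone and 1.43 in vehicle, -0.74 and 1.96 for CEBPB, and -1.29 and 0.84 for NUDT16. ACPL2, at a like level under dexamethasone and not past the difference test there (adjusted p = 0.051, edgeR), had -0.13 and 3.39. With a GC and length offset the values under dexamethasone were 1.02 for ARTN, -1.76 for CEBPB and -0.02 for WNT7B. The vehicle values are ratios of means on the vehicle libraries' own scale, without a GC correction.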

How the results depend on the processing

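The counts depend most on the limits chosen. Like levels numbered 91 with a margin of 25% and 8915 with 2-fold. Keeping only genes at 5 CPM or more in 3 libraries left 5889 genes higher in HCC70, 6214 higher in MDA-MB-231, 2996 and 2618 over 2-fold higher in each, and 214 and 180 specific genes, since fewer genes were tested. With limits of 5 and 0.1 CPM 228 and 173 genes were specific, and with limits of 1 and 0.02 CPM 270 and 217. Leaving out 1 library gave 2479 to 3611 like levels, 10755 to 11344 genes higher in HCC70, 10820 to 11574 higher in MDA-MB-231, 5983 to 6541 and 5418 to 5787 over 2-fold, and 530 to 566 and 432 to 458 specific genes. Without MDA-MB-231 replicate 2, 3110 of the 3347 like calls were shared. With the GC and length offset there were 4197 like levels, of which 2360 were shared, and 352 genes passed the test in both fits with opposite sign. Replicate numbers did not pair the libraries (correlations of -0.139, -0.08 and 0.067), and a replicate block gave 10849 and 10766 genes higher, 6088 and 5274 over 2-fold and 2596 like levels.

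Directions changed only in small differences, apart from WNT7B, among the genes named. Upper quartile scaling and library size alone moved the median of the named genes by -0.142 and -0.192. The log2 difference became -0.12 and -0.17 for GAPDH, -0.13 and -0.18 for NFKBIA and, with library size alone, -0.037 for GCLC and -0.18 for CDK4. With the GC and length offset, and with a replicate block added, it became -0.45 and -0.45 for GAPDH, -0.023 and -0.023 for WNT7B, -0.20 and -0.20 for FOSL2, 0.013 and 0.013 for TGFA, and -0.33 and -0.33 for CRY2, and with the offset alone -0.11 for ACTB. The cause was not tested. Leaving each vehicle library out of its mean, an alternative chosen after seeing the data, gave 73 to 147 genes over 2-fold apart and close in vehicle. A gene with 0 counts in a line is limited only to under 3 counts over its libraries.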
